A study of Zea mays with 57 samples.

Results

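Circadian clock genes LHY, GI and TOC1 of maize are described here, as 6 genes in 3 pairs of copies out of 46335 genes in the count table. The members were chosen by their gene IDs, and no measured value entered the choice. The names LHY, GI and TOC1 come from the description under which the IDs were chosen. Neither the count table nor the available gene reference ties these IDs to symbols, although that reference, which follows another assembly, lists GIGANTEA genes on chromosomes 8 and 3, as in the GI pair here. Of the 6 members 4 passed the filter on low counts and were tested, namely both LHY copies and both GI copies. Both TOC1 copies fell below it.

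The plant clock runs on genes that hold each other in check over the day. LHY (LATE ELONGATED HYPOCOTYL), with its close relative CCA1, encodes a MYB-like repressor that in Arabidopsis peaks around dawn and holds down evening genes, among them TOC1 and GI. GI (GIGANTEA) encodes a large plant protein that peaks later in the day and is known for its part in flowering time and in the stability of clock proteins. TOC1 encodes a pseudo-response regulator of the evening that represses LHY and CCA1 in Arabidopsis. Sampling here ran through the morning, from 2 h to 4 h after lights on.

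Poly(A) RNA from shoots of the maize inbred B73 was counted at its 3′ ends, with identifiers that mark each molecule, in 57 libraries that form 19 groups of 3. All seedlings were 10 days old, grew under 16 h light and 8 h dark, and had been starved of nitrogen for 2 days. The nitrogen groups received 20 mM KNO3 and 20 mM NH4NO3 with a 10% 15N label, and were harvested at 9 times after transfer, in steps of 5 min up to 20 min and then at 30, 45, 60, 90 and 120 min. The KCl groups received 20 mM KCl and were harvested at the same times, and the start group was harvested at 0 min, before transfer. Every library is a pool of tissue from 3 seedlings, and replicates are such pools. The media also differed in chloride and total salt, which cannot be told apart from nitrogen. After the start, time of day and time since transfer advanced together, and they cannot be told apart. In bulk shoots, fewer cells of a type and less RNA per cell cannot be told apart either. The shoot label could not be checked in depth: 1 plastid model overlapped rbcL, the large subunit of Rubisco, with 32 counts over all libraries, and no model was tied to psbA, psaA, psaB or a nuclear marker.

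Libraries held 1654127 to 4603161 counts in nitrogen (n = 26), 1057488 to 5684785 in KCl (n = 27) and 2618258 to 3353328 at the start (n = 3). The remaining nitrogen library, 120 min replicate 3, held 8560 counts. It was kept in the fit and is left out of all levels, so nitrogen has 2 libraries at 120 min. Levels are counts per 1000000 after TMM scaling of library sizes, called scaled CPM here. They are not divided by gene length, and levels of different genes are not compared.

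The LHY chromosome 10 copy (Zm00001d024546, AGPv4 chromosome 10, 77700138 to 77703390, minus strand) and the LHY chromosome 4 copy (Zm00001d049543, chromosome 4, 34070590 to 34104400, plus strand) had 30156 and 31878 counts over all libraries. The GI chromosome 8 copy (Zm00001d008826, chromosome 8, 21787238 to 21795721, minus strand) had 8436 counts, and the GI chromosome 3 copy (Zm00001d039589, chromosome 3, 8521898 to 8533430, plus strand) had 1322. The TOC1 chromosome 5 copy (Zm00001d017241, chromosome 5, 190060998 to 190063941, plus strand) and the TOC1 chromosome 4 copy (Zm00001d051114, chromosome 4, 143867613 to 143870730, plus strand) had 121 and 261. None of these gene models overlapped another gene. The nearest neighbour of the GI chromosome 3 copy, Zm00001d039590, lay 418 bases away on the same strand, so reads past an annotated end could be counted with either gene. The sources used here do not say how reads that match both copies of a pair were placed, and the split of counts between copies is uncertain to that extent.

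Both LHY copies were lower in nitrogen than in KCl. Averaged over the 9 times, the LHY chromosome 10 copy was at 60.4% of its KCl level in nitrogen and the LHY chromosome 4 copy at 54.4%. The GI chromosome 8 copy was slightly higher in nitrogen, at 1.15 times its KCl level. The GI chromosome 3 copy, at 1.12 times, did not pass the test. The question of this comparison is whether the media differ at matched clock times, and tests are from edgeR's quasi-likelihood F test over all genes with Benjamini-Hochberg adjustment and a threshold of 0.05. By this rule 58.8% of the 18412 genes tested were called, 28.9% as lower in nitrogen and 29.9% as higher, so 3 calls among 4 members tested are near the background.

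The LHY chromosome 10 copy ranged from 108.7 to 203.5 scaled CPM over the nitrogen libraries, with a median of 154 (n = 26). Over the KCl libraries it ranged from 162 to 347, with a median of 265 (n = 27). At the start it was at 169, 169 and 233. Of the 27 KCl libraries 25 lay above every nitrogen library, and the 2 exceptions were both KCl libraries of 120 min. Its mean was 158 ± 27.8 scaled CPM in nitrogen and 263 ± 39.2 in KCl (SD over libraries of all times). The average log2 difference between nitrogen and KCl was -0.73 (SE 0.0536, adjusted p = 3.58e-16), and 1148 of the 18412 genes tested had an average difference as low or lower.

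The LHY chromosome 4 copy ranged from 116 to 193 scaled CPM over the nitrogen libraries, with a median of 155 (n = 26). Over the KCl libraries it ranged from 159.5 to 403 with a median of 288 (n = 27), and at the start it was at 159, 164 and 269. Of the 27 KCl libraries 24 lay above every nitrogen library, and the exceptions were replicate 1 of KCl 10 min and both lower KCl libraries of 120 min. Its mean was 154 ± 19.1 scaled CPM in nitrogen and 287 ± 66.4 in KCl (SD). The average log2 difference was -0.88 (SE 0.0634, adjusted p = 1.92e-16), and 777 of the genes tested had a difference as low or lower. The spread over the KCl libraries was thus wider than over the nitrogen libraries for this copy.

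The difference was present in the first samples after transfer. At 5 min the LHY chromosome 10 copy was at 182, 187 and 129 scaled CPM in nitrogen and at 244, 223 and 256 in KCl. The LHY chromosome 4 copy was at 166, 180 and 147 in nitrogen and at 288, 273 and 317 in KCl. For both copies all 3 nitrogen libraries lay below all 3 KCl libraries. The log2 difference at 5 min was -0.53 (SE 0.156, adjusted p = 0.0136) for the chromosome 10 copy and -0.83 (SE 0.184, adjusted p = 0.00154) for the chromosome 4 copy, where 9.71% of genes tested were called as lower. Without nitrogen 5 min replicate 3 the chromosome 10 copy was at -0.40 (adjusted p = 0.169).

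At 10 min the LHY chromosome 10 copy was at 129, 153 and 172 scaled CPM in nitrogen, against 225, 255 and 223 in KCl. At 10 min the LHY chromosome 4 copy was at 149, 153 and 159 in nitrogen, against 176, 248 and 195 in KCl. Again no library of one medium reached into the range of the other. Neither difference passed the test at this time, with -0.63 (adjusted p = 0.058) and -0.43 (adjusted p = 0.276), and 0.13% of genes tested were called as lower at 10 min. Without nitrogen 10 min replicate 3 the chromosome 10 copy was at -0.73 (adjusted p = 0.01). At 15 min the values were 197, 190 and 156 in nitrogen and 244, 268 and 296 in KCl for the chromosome 10 copy, and 169, 168 and 159 in nitrogen and 288, 308 and 353 in KCl for the chromosome 4 copy. Both were lower in nitrogen by the test at 15 min, where 4.87% of genes were called as lower, with differences of -0.57 (adjusted p = 0.0161) and -0.93 (adjusted p = 0.000851). Without nitrogen 15 min replicate 3 the chromosome 10 copy was at -0.50 (adjusted p = 0.112), and without KCl 15 min replicate 3 at -0.53 (adjusted p = 0.0615).

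The gap was widest from 20 to 45 min. At 20 min the LHY chromosome 10 copy was at 147, 147 and 132 scaled CPM in nitrogen and at 319, 265 and 347 in KCl, a difference of -1.13 (SE 0.160, adjusted p = 1.8e-06). At 20 min the LHY chromosome 4 copy was at 144, 167 and 156 in nitrogen and at 284, 373 and 403 in KCl, a difference of -1.19 (SE 0.188, adjusted p = 9.16e-06). These KCl groups had the highest mean of all 19 groups for both copies. At 45 min the chromosome 10 copy was at 149.8, 108.7 and 137 in nitrogen and at 294, 293 and 289 in KCl, and the chromosome 4 copy at 138, 116 and 129 in nitrogen and at 317, 374 and 356 in KCl. Here the nitrogen groups had the lowest mean of all 19 groups for both copies. The differences at 45 min were -1.15 (SE 0.161, adjusted p = 2e-06) and -1.45 (SE 0.19, adjusted p = 4.91e-07). At 30 min, between these times, they were -0.92 (adjusted p = 0.000149) and -1.12 (adjusted p = 0.000106). The share of genes called as lower was 13.4% at 20 min, 7.66% at 30 min and 13.7% at 45 min.

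At later times the differences were smaller than at 45 min, and at 120 min the media overlapped. At 60 min the log2 differences were -0.91 (adjusted p = 0.000112) for the LHY chromosome 10 copy and -0.88 (adjusted p = 0.000869) for the LHY chromosome 4 copy, with 10.9% of genes called as lower. At 90 min they were -0.65 (adjusted p = 0.00859) and -0.76 (adjusted p = 0.00914), with 3.37% called as lower. Without nitrogen 90 min replicate 3 they were -0.61 (adjusted p = 0.0582) and -0.63 (adjusted p = 0.0952). At both times no nitrogen library reached the KCl range for either copy. At 120 min the chromosome 10 copy was at 184 and 203.5 scaled CPM in nitrogen and at 255, 184 and 162 in KCl, and the chromosome 4 copy at 193 and 145 in nitrogen and at 286, 159.5 and 172 in KCl. The ranges overlapped, KCl 120 min replicate 1 stood above the other KCl libraries for both copies, and the differences of -0.07 (SE 0.173, adjusted p = 0.946) and -0.31 (SE 0.205, adjusted p = 0.626) did not pass, at a time when 0.587% of genes were called as lower.

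**Figure D1:**
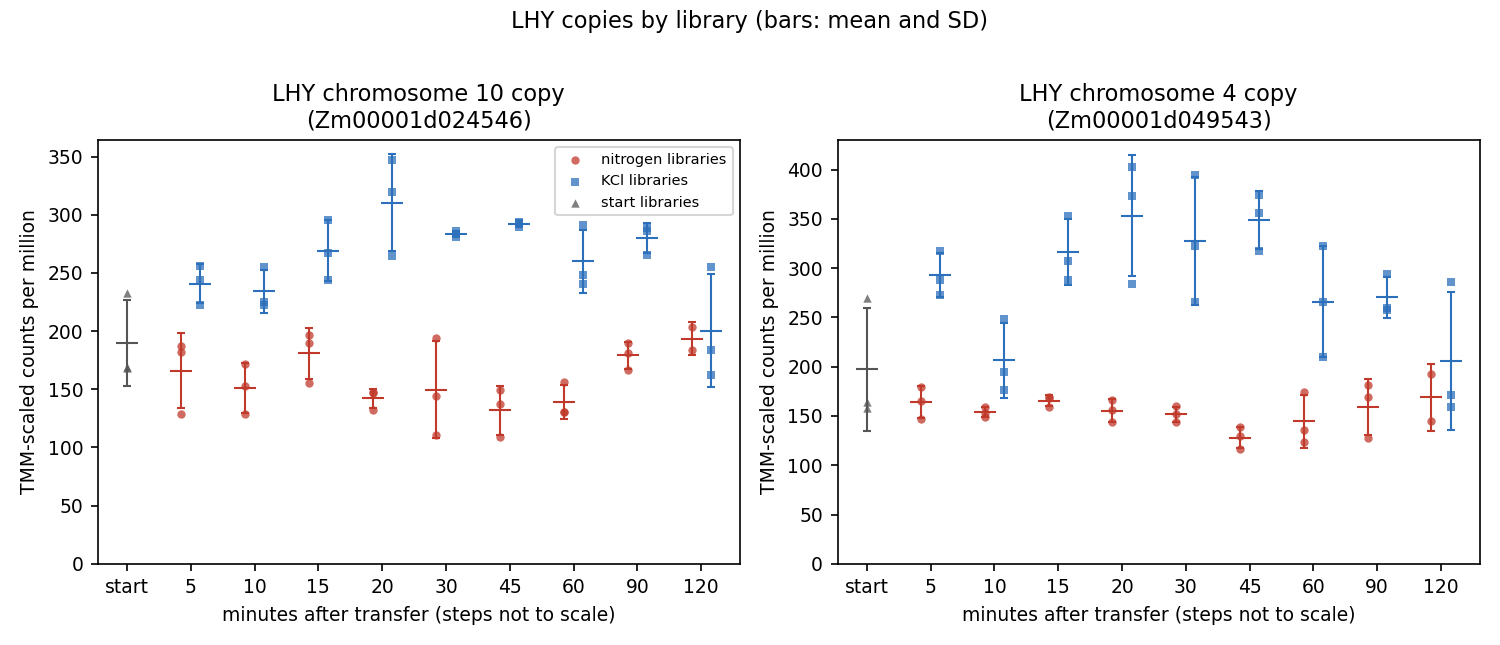
Scaled CPM (vertical axis, from 0) of the LHY chromosome 10 copy (left) and the LHY chromosome 4 copy (right) in each nitrogen, KCl and start library against minutes after transfer (steps not to scale), with group means and SDs as bars. Nitrogen libraries lie below KCl libraries with no overlap at 8 of 9 times for each copy, and overlap them at 120 min. The share of all genes tested that were as free of overlap was not worked out.

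Counted over the course, each LHY copy was called as lower in nitrogen at 7 of 9 times, and its libraries did not overlap between the media at 8 of 9. The missing calls were at 10 and 120 min for both copies. How many of all genes tested reached these counts was not worked out. On the average of the 9 times 28.9% of genes tested were called as lower. Tests of how the difference changed over the course gave different answers for different questions. The change from the mean of 5 to 30 min to the mean of 45 to 120 min was 0.06 (SE 0.108, adjusted p = 0.873) for the chromosome 10 copy and 0.05 (SE 0.127, adjusted p = 0.929) for the chromosome 4 copy, with 1.41% of genes called. A joint test of any change of the difference over the 9 times, added after seeing the data, passed for the LHY chromosome 10 copy (F = 4.19, adjusted p = 0.0367) and not for the LHY chromosome 4 copy (F = 3.45, adjusted p = 0.0747), with 2.52% of genes called. The call of the chromosome 10 copy was lost in thinned counts (F = 4.03, adjusted p = 0.0513) and in the authors' normalized table (F = 3.65, adjusted p = 0.0727). It was also lost without any 1 of 10 libraries, with F from 3.26 to 4.15 and adjusted p up to 0.11. These were nitrogen 20 min replicate 3, 45 min replicate 2, 90 min replicate 1 and 120 min replicates 1 and 2, and KCl 5 min replicate 2, 20 min replicate 3, 45 min replicate 2 and 120 min replicates 2 and 3. The LHY chromosome 4 copy passed without KCl 120 min replicate 1 (F = 4.97, adjusted p = 0.0158). It also passed without the filter on low counts (F = 5.75, adjusted p = 1.24e-05), with a covariate for the within-group axis (F = 4.23, adjusted p = 0.0103) and with the libraries of the groups compared alone (F = 3.90, adjusted p = 0.0468).

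**Figure D2:**
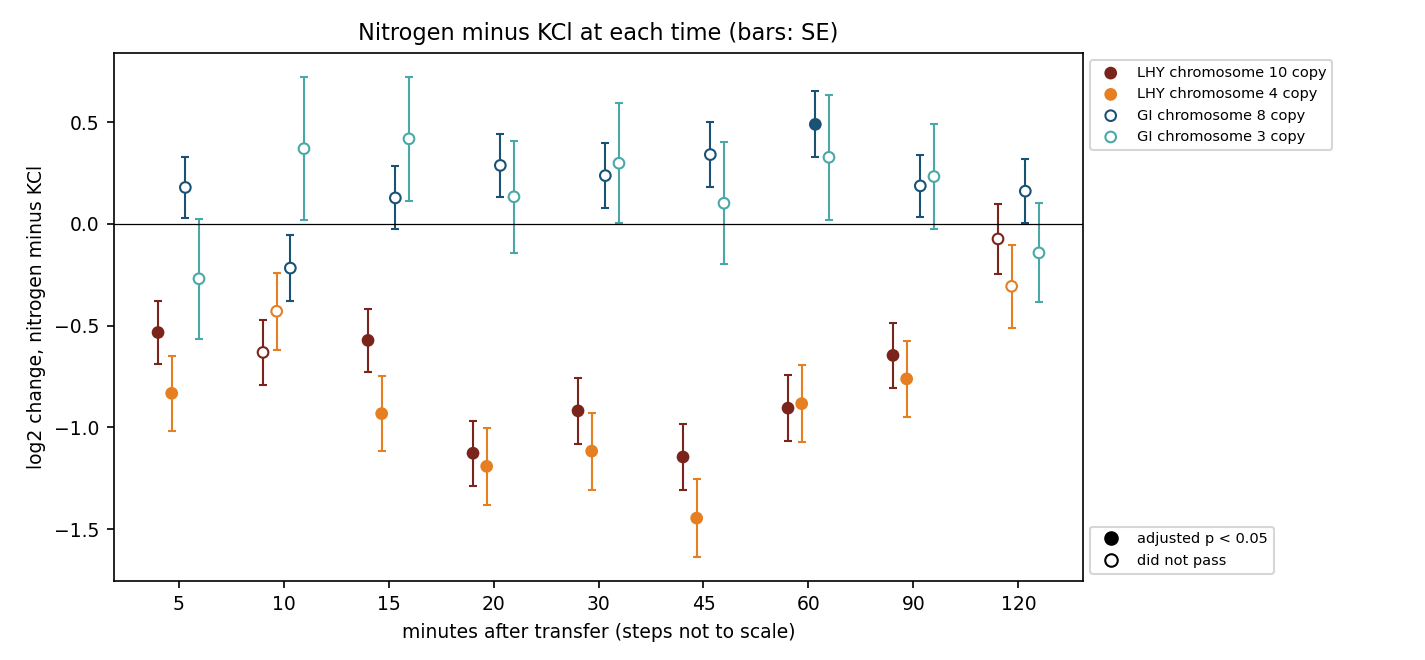
Log2 difference between nitrogen and KCl (vertical axis, bars are SEs) at each time after transfer (steps not to scale) for the 4 members tested, filled where the adjusted p was under 0.05. Both LHY copies lie lowest at 45 min, at -1.15 and -1.45, and are at -0.07 and -0.31 at 120 min. The GI copies scatter around or slightly above 0.

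The start group shares its libraries with both comparisons against it, so their values are given side by side only. Against the start, the KCl average of the LHY chromosome 10 copy was higher by 0.46 (SE 0.121, adjusted p = 0.00917) on the log2 scale and its nitrogen average differed by -0.27 (SE 0.115, adjusted p = 0.332). For the LHY chromosome 4 copy the KCl average was higher by 0.52 (SE 0.143, adjusted p = 0.013) and the nitrogen average differed by -0.36 (SE 0.135, adjusted p = 0.252), which passed without the filter on low counts (-0.36, adjusted p = 0.0375). These comparisons were added after seeing the data, and 4.8% of genes were called as higher in the KCl average and 0.521% were called in the nitrogen average. Start replicate 3 stood above the other start libraries for both copies. Without replicate 3 the KCl averages were higher by 0.65 (adjusted p = 0.00163) and 0.82 (adjusted p = 0.000699), and the nitrogen averages were at -0.09 (adjusted p = 0.982) and -0.07 (adjusted p = 0.988). Without start replicate 1 both KCl calls were lost, at 0.38 (adjusted p = 0.149) and 0.38 (adjusted p = 0.233), and likewise without start replicate 2, at 0.39 (adjusted p = 0.119) and 0.40 (adjusted p = 0.18). At 5 min KCl alone, the chromosome 4 copy was at 0.57 (SE 0.183, adjusted p = 0.15) above the start, at 0.44 (adjusted p = 0.718) without start replicate 1, at 0.46 (adjusted p = 0.594) without replicate 2 and at 0.88 (adjusted p = 0.00618) without replicate 3, with 0.0923% of genes called as higher in that comparison. It passed without the filter on low counts, at 0.58 (adjusted p = 0.00656), and with a covariate for the within-group axis, at 0.59 (adjusted p = 0.0337).

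Within a medium, no straight-line change of an LHY copy from 5 to 120 min passed the test. In nitrogen the straight-line change was 0.11 log2 units per hour (SE 0.0649, adjusted p = 0.218) for the LHY chromosome 10 copy and 0.01 (SE 0.0774, adjusted p = 0.969) for the LHY chromosome 4 copy, with 22.3% of genes called. In KCl it was -0.11 per hour (SE 0.0602, adjusted p = 0.256) and -0.20 (SE 0.0713, adjusted p = 0.0592), with 10.4% of genes called. The slopes in nitrogen and KCl differed by 0.23 (SE 0.0885, adjusted p = 0.111) and 0.21 (SE 0.105, adjusted p = 0.228), with 6.27% of genes called. A joint test of any change over the 9 times, which also sees courses that bend, passed for the LHY chromosome 4 copy in KCl (F = 4.93, adjusted p = 0.00631) and not for the LHY chromosome 10 copy there (F = 3.03, adjusted p = 0.0977), with 5.14% of genes called. In nitrogen neither passed, with adjusted p of 0.109 and 0.8, and 13.1% of genes were called.

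KCl 120 min replicate 1 weighed on the KCl course of both copies. Without it the slope in KCl was -0.19 (adjusted p = 0.0423) for the LHY chromosome 10 copy and -0.31 (adjusted p = 0.00296) for the LHY chromosome 4 copy. The difference between the slopes in nitrogen and KCl was then 0.30 (adjusted p = 0.0276) and 0.32 (adjusted p = 0.0472). Both copies thus passed these tests once that library was left out, as did the joint test of any change in KCl for the chromosome 10 copy (F = 4.18, adjusted p = 0.0191). The KCl slope of the chromosome 4 copy also passed without any 1 of 4 other KCl libraries, which were 10 min replicate 1, 20 min replicate 1, 30 min replicate 2 and 60 min replicate 2, at -0.22 to -0.21.

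Both GI copies rose through the sampled part of the morning, in both media. Whether this rise went with time of day or with time since transfer cannot be told apart. The GI chromosome 8 copy reached 91.2 ± 7.23 scaled CPM after 120 min in nitrogen (SD, n = 2) and 80.5 ± 2.9 in KCl (n = 3), against 44.3 ± 7.77 at the start (n = 3). The GI chromosome 3 copy reached 17.7 ± 1.76 in nitrogen and 19.7 ± 2.48 in KCl, against 6.29 ± 0.614 at the start. For both copies every library of 120 min lay above every start library. The share of all genes tested that separated in this way was not worked out. Both start comparisons share the start libraries.

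For the GI chromosome 8 copy the single libraries of 120 min were at 96.3 and 86 scaled CPM in nitrogen, at 83.2, 77.4 and 80.8 in KCl, and at 45.9, 51.2 and 35.8 at the start. The change against the start was 1.02 in nitrogen (SE 0.161, adjusted p = 3.86e-05), a 2.03-fold rise, and 0.86 in KCl (SE 0.151, adjusted p = 8.37e-05), a 1.81-fold rise, on the log2 scale. For the GI chromosome 3 copy the libraries were at 18.99 and 16.5 in nitrogen, at 20.01, 22.1 and 17.1 in KCl, and at 7, 5.95 and 5.92 at the start. Its change was 1.497 in nitrogen (SE 0.273, adjusted p = 0.00049), a 2.82-fold rise, and 1.64 in KCl (SE 0.256, adjusted p = 1.18e-05), a 3.11-fold rise. At 120 min against the start 1% of genes were called as higher in nitrogen and 6.52% in KCl. The nitrogen values rest on 2 libraries of full depth, and without replicate 1 of them the GI chromosome 3 copy was at 1.37 (adjusted p = 0.0934).

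The rise was present when the start group was left aside. From 5 to 120 min the GI chromosome 8 copy rose by 0.45 log2 units per hour in nitrogen (SE 0.0594, adjusted p = 1.53e-07) and by 0.38 in KCl (SE 0.0577, adjusted p = 3.87e-06). The GI chromosome 3 copy rose by 0.81 per hour in nitrogen (SE 0.101, adjusted p = 4.62e-08) and by 0.89 in KCl (SE 0.103, adjusted p = 9.25e-09). These 4 slopes were called under every alternative tried. Slopes called as higher made up 11.8% of genes tested in nitrogen and 6.34% in KCl. In KCl 139 of the 18412 genes tested had a slope as high as or higher than that of the GI chromosome 3 copy, and 926 one as high as or higher than that of the GI chromosome 8 copy.

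No difference in slope between the media passed the test, with values between nitrogen and KCl of 0.08 (SE 0.084, adjusted p = 0.654) for the GI chromosome 8 copy and -0.08 (SE 0.147, adjusted p = 0.889) for the GI chromosome 3 copy. Over both media together the chromosome 8 copy was at 0.33 from 5 to 60 min (SE 0.111, adjusted p = 0.212), which did not pass, and rose by 0.47 from 60 to 120 min (SE 0.113, adjusted p = 0.00571). The chromosome 3 copy rose by 0.89 from 5 to 60 min (SE 0.215, adjusted p = 0.0255) and by 0.98 from 60 to 120 min (SE 0.192, adjusted p = 0.000845). Both contrasts were added after seeing the data, and 0.63% of genes were called as higher between 5 and 60 min and 4.84% between 60 and 120 min. The early rise of the chromosome 3 copy lost its call in DESeq2, at 0.90 (adjusted p = 0.139), in thinned counts, at 0.83 (adjusted p = 0.464), and with the libraries of the groups compared alone, at 0.89 (adjusted p = 0.0764). It was also lost without any 1 of 7 libraries, which were nitrogen 5 min replicates 1 and 2, nitrogen 60 min replicates 2 and 3, KCl 5 min replicates 2 and 3, and KCl 60 min replicate 2, with values from 0.67 to 0.88 and adjusted p up to 0.292. Without nitrogen 120 min replicate 1 the late rise of the chromosome 8 copy was at 0.42 (adjusted p = 0.0632).

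**Figure D3:**
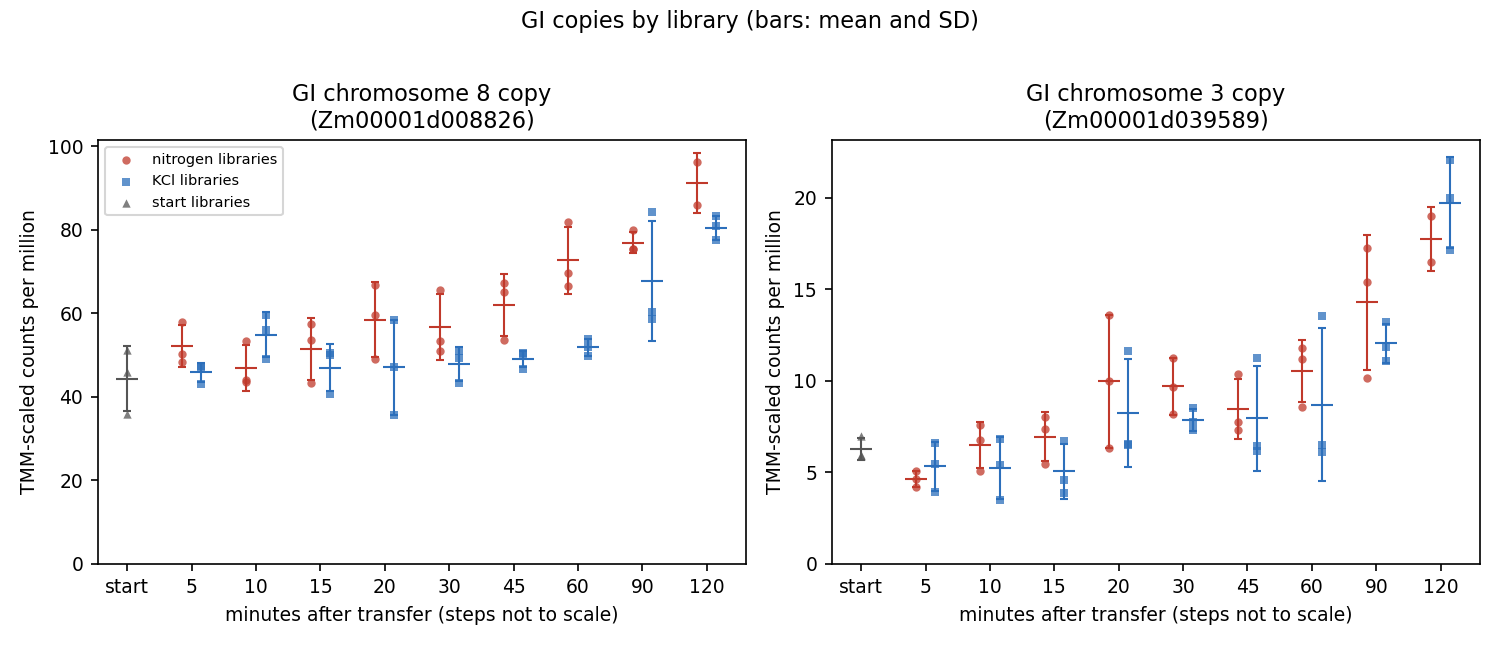
Scaled CPM (vertical axis, from 0) of the GI chromosome 8 copy (left) and the GI chromosome 3 copy (right) in each nitrogen, KCl and start library against minutes after transfer (steps not to scale), with group means and SDs as bars. Both copies are highest at 120 min in both media, where the means are 91.2 and 80.5 scaled CPM for the chromosome 8 copy and 17.7 and 19.7 for the chromosome 3 copy in nitrogen and KCl.

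Group means in time order show the same course. In nitrogen the GI chromosome 8 copy averaged 52.2, 47, 51.5, 58.5, 56.7, 62, 72.8, 77 and 91.2 scaled CPM at the 9 times from 5 to 120 min. In KCl it averaged 45.8, 54.9, 47, 47, 47.8, 49, 51.8, 67.8 and 80.5. The KCl means thus stayed between 45.8 and 54.9 up to 60 min, while the nitrogen means passed 60 from 45 min on. The joint test of any change of the difference between the media did not pass for this copy (F = 1.40, adjusted p = 0.488). It did not pass for the GI chromosome 3 copy either (F = 0.667, adjusted p = 0.838), with 2.52% of genes called. That test was added after seeing the data. For the GI chromosome 3 copy the means were 4.64, 6.49, 6.95, 9.98, 9.69, 8.47, 10.5, 14.3 and 17.7 in nitrogen, and 5.32, 5.24, 5.04, 8.22, 7.86, 7.94, 8.7, 12.1 and 19.7 in KCl.

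Between the media, the GI chromosome 8 copy was higher in nitrogen by 0.20 on average (SE 0.0524, adjusted p = 0.00104), while 27.4% of the genes tested had an average difference as high or higher. Nitrogen libraries lay above KCl libraries with no overlap at 5 of 9 times, which were 5, 30, 45, 60 and 120 min. At 120 min this rests on 2 nitrogen libraries, and how many of all genes tested were as free of overlap was not worked out. Of the single times only 60 min passed, with 66.7, 69.8 and 81.8 scaled CPM in nitrogen and 51.8, 49.8 and 53.8 in KCl, and a log2 difference of 0.49 (SE 0.162, adjusted p = 0.0259), where 9.68% of genes were called as higher. That call was lost in DESeq2, at 0.45 (adjusted p = 0.153), and without each of 3 libraries in turn, namely nitrogen 60 min replicate 3, at 0.38 (adjusted p = 0.137), and KCl 60 min replicates 1 and 2, at 0.48 (adjusted p = 0.0876) and 0.45 (adjusted p = 0.0975). The mean of 45 to 120 min was higher in nitrogen by 0.29 (SE 0.0789, adjusted p = 0.00243), with 18.5% of genes called as higher, and that of 5 to 30 min differed by 0.12 (SE 0.0701, adjusted p = 0.141, 49.6% of genes called), while the change between these means did not pass (0.17, SE 0.106, adjusted p = 0.534). Taken jointly, the 9 differences passed for this copy (F = 2.86, adjusted p = 0.0208, 46.9% of genes called) but not with RLE scaling (F = 2.38, adjusted p = 0.0528). That call was also lost without any 1 of nitrogen 45 min replicate 3, nitrogen 60 min replicate 3 and KCl 60 min replicates 1 and 2, with F from 2.24 to 2.41 and adjusted p up to 0.0705. The GI chromosome 3 copy averaged a difference of 0.16 (SE 0.098, adjusted p = 0.148) and was called at 0 of 9 times by edgeR and by DESeq2, with edgeR's unadjusted p from 0.176 to 0.909, and its libraries overlapped between the media at 9 of 9 times.

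The ratio of the GI copies within a library moved over the course. The log2 ratio of the chromosome 8 copy to the chromosome 3 copy had a median of 3.30 in nitrogen (range 3.24 to 3.32) and 2.95 in KCl (2.69 to 3.22) at 5 min, and of 2.31 in nitrogen (2.30 to 2.33, n = 2) and 2.01 in KCl (1.78 to 2.19) at 120 min. At the start it was 2.58 (2.45 to 2.95). In each medium all libraries of 120 min lay below all libraries of 5 min. Between these times the course was not steady. The nitrogen median was 2.23 at 90 min, and the lowest library was at 1.79 at nitrogen 20 min and at 1.82 at KCl 60 min. The size of the ratio itself is not read, since it depends on the copies' annotated ends and on the placement of reads that match both. Also, 3′ counts of the chromosome 3 copy were as low as 6 in a library. For LHY the log2 ratio of the chromosome 10 copy to the chromosome 4 copy had group medians between -0.30 and 0.21. In nitrogen it was 0.13, 0.06 and -0.19 at 5 min and -0.07 and 0.49 at 120 min, and the times overlapped. In KCl it was -0.24, -0.29 and -0.31 at 5 min and -0.17, 0.20 and -0.08 at 120 min, where all libraries of 120 min lay above all of 5 min.

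**Figure D4:**
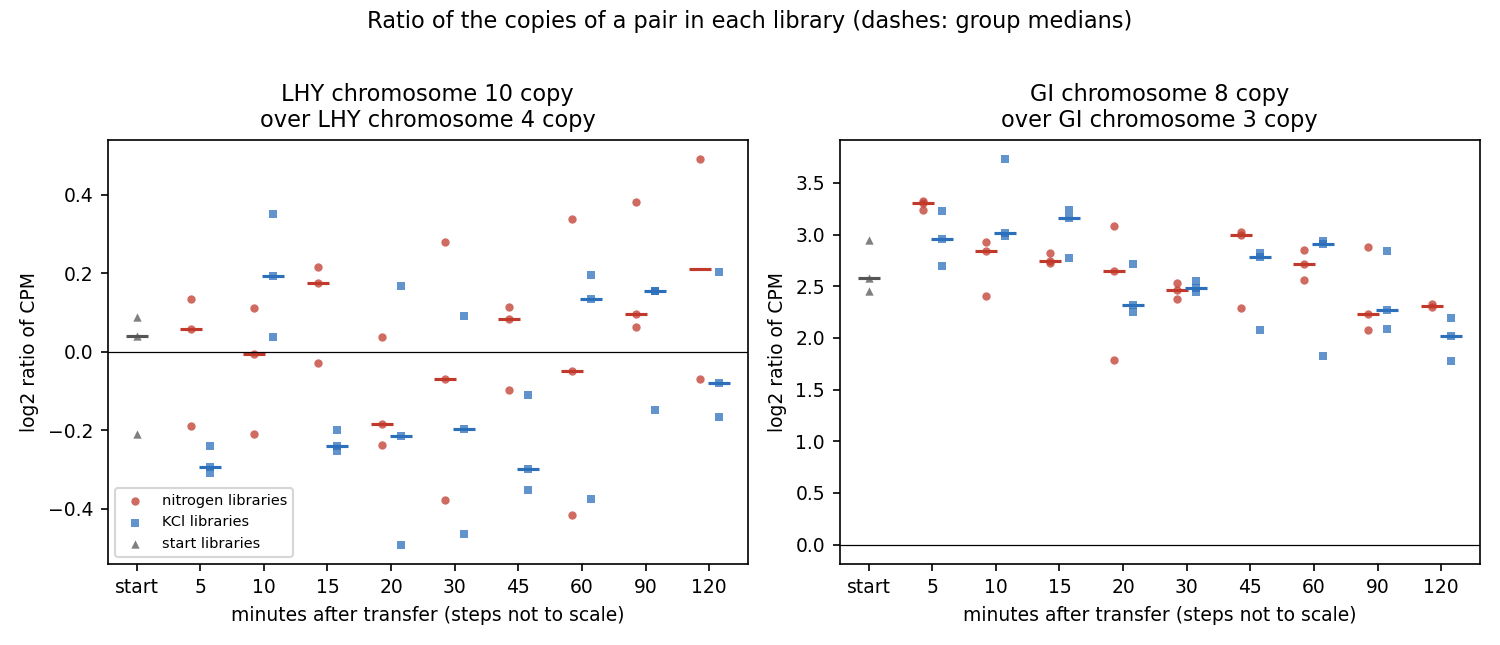
Log2 ratio of the scaled CPM of the copies of a pair in each library (vertical axis), for LHY (left) and GI (right), against minutes after transfer (steps not to scale), with group medians as dashes. The GI ratio has medians of 2.31 in nitrogen and 2.01 in KCl at 120 min, without a steady course before that. The LHY medians stay between -0.30 and 0.21.

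The TOC1 copies were near the limit of detection. The TOC1 chromosome 5 copy had 0 to 7 counts per library and was at 0 counts in 2 nitrogen libraries of full depth and in 5 KCl libraries, where the limit that a count of 0 allows, 3 counts of the total, was 0.528 to 2.84 CPM over all libraries of full depth. It averaged 0.843 ± 0.498 scaled CPM in nitrogen (SD, n = 26) and 0.787 ± 0.566 in KCl (n = 27), against 0.59 ± 0.257 at the start (n = 3). The TOC1 chromosome 4 copy had 1 to 15 counts per library and averaged 1.8 ± 0.895 in nitrogen and 1.61 ± 0.628 in KCl, against 2.25 ± 0.474 at the start. In scaled CPM the media overlapped at 7 of 9 times for the chromosome 5 copy and at 9 of 9 times for the chromosome 4 copy. Nitrogen libraries of the chromosome 5 copy lay above the KCl libraries at 10 and 45 min. At 10 min this was 4 to 5 counts per nitrogen library and 0 to 2 per KCl library. At 45 min it was 2 counts in each nitrogen library and 1 in each KCl library. The share of all genes that separated in this way was not worked out. In the fit without a filter, where 36.3% of 31641 genes were called on the average of the 9 times, the average log2 differences between nitrogen and KCl were 0.08 (SE 0.32, adjusted p = 1) and 0.08 (SE 0.235, adjusted p = 1). At single times the SEs of the 2 copies ran from 0.58 to 1.09 log2 units, and differences larger than the SE also went without a call. The chromosome 4 copy was at 1.18 (SE 0.629, adjusted p = 0.23) at 20 min and at -1.18 (SE 0.75, adjusted p = 0.795) at 120 min.

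**Figure D5:**
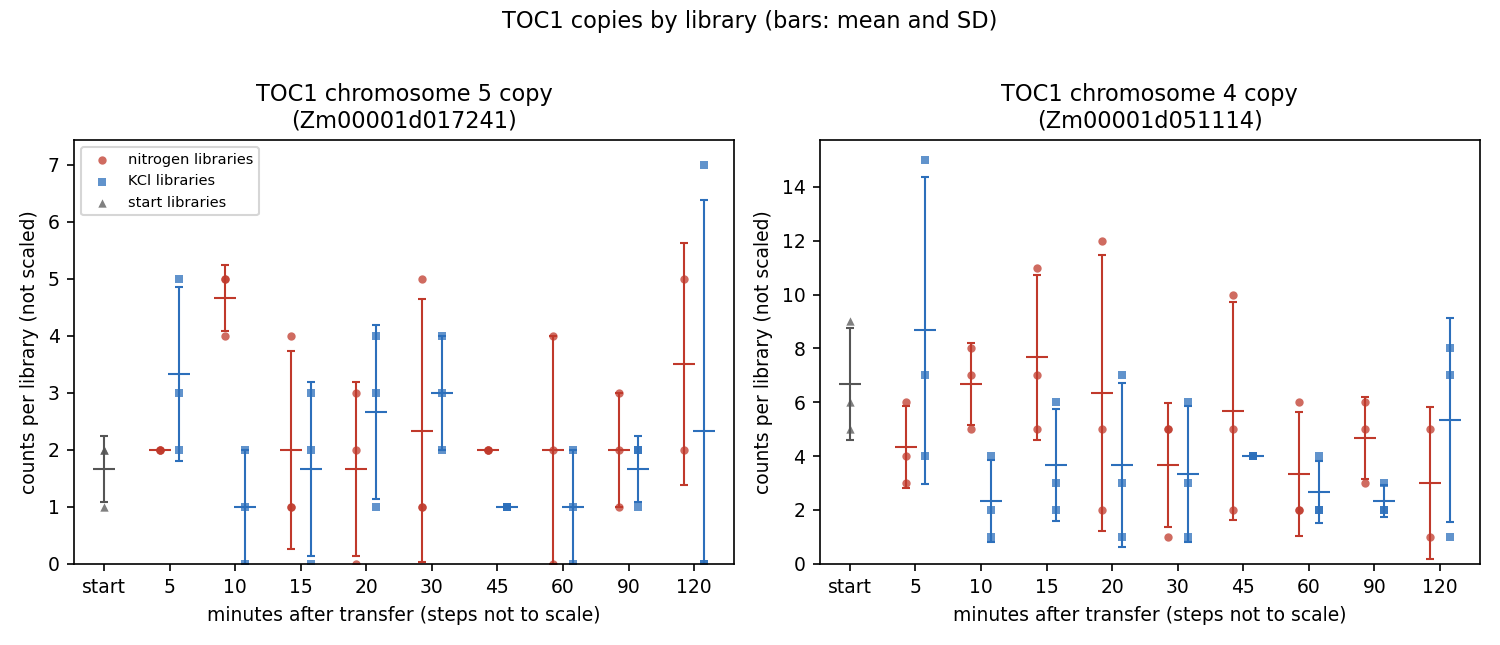
Counts per library, not scaled (vertical axis, from 0), of the TOC1 chromosome 5 copy (left) and the TOC1 chromosome 4 copy (right) against minutes after transfer (steps not to scale), with group means and SDs as bars. Counts stay between 0 and 7 and between 1 and 15, and the ranges of nitrogen, KCl and start libraries over all times overlap.

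Ordered by mean level, the 10 lowest of the 19 groups for both LHY copies were the 9 nitrogen groups and the start, and the 9 highest were the KCl groups, of which 120 min stood lowest. For the GI copies both groups of 120 min stood highest. Neighbours in these orders mostly did not differ beyond their spread: of 18 neighbouring pairs, 1 was free of overlap for the LHY chromosome 10 copy, 1 for the GI chromosome 8 copy and 0 for each of the others.

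As a description over the 19 group means, the log2 levels of the LHY copies went together (r = 0.958), as did those of the GI copies (r = 0.862), while r between LHY and GI copies ran from -0.465 to -0.148. The groups share the times and media, which enter all of these values. Among 15447 other genes that averaged 5 CPM or more, the 3 with the highest r with the LHY chromosome 10 copy were Zm00001d045366 (0.988), Zm00001d042840 (0.987) and Zm00001d028562 (0.986). With the LHY chromosome 4 copy they were Zm00001d042596 (0.969), Zm00001d012537 (0.961) and Zm00001d053953 (0.958). For the GI chromosome 8 copy they were Zm00001d016720 (0.925), Zm00001d008546 (0.906) and Zm00001d010988 (0.906), and for the GI chromosome 3 copy Zm00001d038274 (0.881), Zm00001d050293 (0.863) and Zm00001d030666 (0.849). None of these genes carries a name in the sources used here, so no other clock gene could be followed.

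The LHY copies also appear in the authors' deposited network table, which gives a weight for each pair of 203 regulators and 2732 targets. Over all pairs the median weight is 0.0305 and the highest is 110.9. In it the LHY chromosome 4 copy is a regulator, ranked 196 of 203 by the sum of its weights, with 1521 of its 2732 weights at 0. The highest weight of this copy is 0.806, which ranks 202 of 203 among the regulators. Its weight on the LHY chromosome 10 copy is 0 in the authors' deposited table. As targets, the LHY chromosome 10 copy ranks 270 and the LHY chromosome 4 copy 780 of 2732 by the sum of incoming weights. The regulator with the highest weight is Zm00001d051788 for the chromosome 10 copy, at 3.14, and Zm00001d024783 for the chromosome 4 copy, at 1.14. The GI and TOC1 copies have no pair in the authors' deposited table. The sources used here do not say whether that table was made from these libraries, so it is given as a description only.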

How the data were processed

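The authors deposited whole-number counts per gene from 3′ end sequencing of maize shoots, not normalized. The submitters' processing notes name STAR 2.7.6a, UMI-tools 1.1.1 and fastp 0.21.0, and featureCounts in version 2.0.1, where the count table's header has version 1.5.1. Per the file headers, genes follow AGPv4 annotation release 37 and no strand option was set. The authors' normalized table is a score of unstated making (each of 55 libraries sums to 2522105; 4 of the 6 members are held), and the weights of their network table are a score too. Of the count table, 2 columns matched no labelled sample and were not used. Of 44146 nuclear IDs 0 occurred in the gene reference, so members go by the names they were chosen under. No sequence of a member was available here.

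Tests used edgeR 4.0.16 in R 4.3.3, with filterByExpr by group, TMM scaling and 1 model of 19 group means over 57 libraries (38 residual degrees of freedom), with two-sided quasi-likelihood F tests and Benjamini-Hochberg adjustment over the 18412 genes tested. SEs were taken from the log2 change and the root of its F. The slope is a linear contrast of group means on time in hours. The scripts were tested on simulated data. Alternatives included RLE scaling, library totals, no filter, a mean of at least 5 CPM, a replicate block, a covariate, thinned counts, the authors' table with limma 3.58.1, DESeq2 1.42.0 and leaving out each of the 57 libraries. Ratios of copies are of log2 scaled CPM with a prior count of 2. The named genes are the 6 members and, for each member tested, the 3 genes most alike over the groups. The members, lists and tests were chosen with earlier results of these data known. The limit set by a count of 0 covers counting error only, and p-values measure the spread between pools of 3 seedlings.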

Additional observations from a re-analysis of the deposited data

Results flagged for a closer look

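The difference between nitrogen and KCl of the LHY chromosome 10 copy was not the same at all times by the joint test of its change over the 9 times (F = 4.19, adjusted p = 0.0367). The log2 difference was -1.15 at 45 min (SE 0.161), where 3 of 3 nitrogen libraries lay below all KCl libraries, and -0.07 at 120 min (SE 0.173), where the media overlapped. The test was added after seeing the data, and its call was lost in thinned counts and in the authors' normalized table. It was also lost without any 1 of 10 libraries, with adjusted p up to 0.11. The LHY chromosome 4 copy did not pass the same joint test (F = 3.45, adjusted p = 0.0747).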

How the results depend on the processing

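The average differences between nitrogen and KCl kept direction and call for both LHY copies and the GI chromosome 8 copy, and so did the slopes of both GI copies in both media, under every alternative tried. The cause of each change below was not tested. With the within-group axis as covariate, more LHY tests passed: the slope difference of the chromosome 10 copy (0.24), the KCl slope of the chromosome 4 copy (-0.20), and any change of the chromosome 10 copy in nitrogen (F = 3.96) and in KCl (F = 4.56). That axis was taken from the same libraries. With it 12.9% of all genes tested were called for the KCl slope, in place of 10.4%. Without the filter on low counts, any change of the chromosome 10 copy passed in nitrogen (F = 2.91) and KCl (F = 3.60), as did the KCl slope of the chromosome 4 copy (-0.21, also -0.21 with library totals). The slope difference of the chromosome 10 copy passed from 10 min on (0.31), its change in KCl with the KCl libraries alone (F = 4.53), and its change in nitrogen in the authors' table (F = 3.32). In that table the GI chromosome 3 copy also passed for the average (0.26) and for 5 to 30 min (0.33). The LHY chromosome 10 copy at 10 min passed in 4 settings other than leaving out a library, at -0.65 to -0.60. With RLE scaling the joint test of the GI chromosome 8 copy did not pass (F = 2.38). In thinned counts the GI chromosome 3 copy in nitrogen at 120 min against the start did not pass (1.47). Signs of values that passed in no setting turned in thinned counts: the LHY chromosome 10 copy at 120 min (0.00427), late minus early of the LHY chromosome 4 copy (-0.0135) and of the GI chromosome 3 copy (0.143), the nitrogen slope of the LHY chromosome 4 copy (-0.0110), and the slope difference of the GI chromosome 3 copy (0.0592).

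With 1 library left out at a time, the LHY chromosome 10 copy had KCl slopes of -0.191 to -0.0702, slope differences of 0.18 to 0.30, F of 2.08 to 3.34 in nitrogen and 2.12 to 4.18 in KCl for any change, and -0.21 to 0.11 at 120 min. Without nitrogen 30 min replicate 2 its change in nitrogen passed (adjusted p = 0.0336). The LHY chromosome 4 copy had KCl slopes of -0.31 to -0.15, which passed without KCl 10 min replicate 1, 20 min replicate 1, 30 min replicate 2, 60 min replicate 2 or 120 min replicate 1. It had nitrogen slopes of -0.0903 to 0.0567, slope differences of 0.12 to 0.32 and late minus early of -0.00737 to 0.131. The GI chromosome 8 copy had joint F of 2.24 to 3.33, and the GI chromosome 3 copy late minus early of -0.133 to 0.0506 and 1.37 to 1.56 for nitrogen at 120 min against the start.

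Replicate numbers did not pair the libraries: the deviations of same-numbered libraries at the same time had r of -0.152 to 0.213 over 26 pairs, with 1 over 0.1, and 10 of 26 nitrogen libraries were most like the KCl library of their own number. With a replicate block the average difference was -0.73 for the LHY chromosome 10 copy and -0.88 for the LHY chromosome 4 copy, and 10819 genes were called on average in place of 10830. Thinned counts called 7929 genes, and the KCl slope was called for 1913 genes, 905 in the authors' table and 1086 in DESeq2. Joint tests were not run in DESeq2. Depth limits both TOC1 copies and the GI chromosome 3 copy, and the 120 min nitrogen group has 2 libraries of full depth.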

Other observations

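Over 56 libraries of full depth, the first axis of the deviations from group means, which holds 12.4% of their variance, had r of -0.572 with the LHY chromosome 10 copy, -0.294 with the LHY chromosome 4 copy, 0.461 with the GI chromosome 8 copy and -0.0305 with the GI chromosome 3 copy. The libraries share the 19 groups, and the part of this axis in the results was measured only through the covariate fits.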
